A study of Mus musculus with 42 samples.

Results

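Young macrophages were compared between ZT24 and ZT20, the last 4 h of the night, where ZT (zeitgeber time) counts hours along the light schedule of the mice. The ZT24 group holds 3 libraries and the ZT20 group 3, so 6 of the 42 libraries of the series were chosen, by their labels alone. Both groups are macrophages of C57BL/6 mice aged 2 to 3 months, with no treatment or genotype given in the labels, and differ in the hour of harvest. The other young libraries are from ZT0, ZT4, ZT8, ZT12 and ZT16, and the 21 aged libraries are from mice of 18 to 20 months at the same 7 times. The labels name neither the tissue the macrophages came from nor the animals behind each library, so the p-values rest on a spread between libraries that may be technical. RNA was made into 3' end libraries, which count transcript ends, so that long genes gain no reads from their length.

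As background, the circadian clock is a loop in which the activators CLOCK and BMAL1 (encoded by Arntl) drive the genes of their own repressors, the PER, CRY and REV-ERB proteins, and of output factors such as DBP and TEF. Macrophages carry this clock and many of their genes follow the hour. Chaperones of the heat shock class fold proteins in the cytosol and are driven by the factor HSF1, which heat, stress and the daily rise of body temperature can activate. A second set folds proteins in the endoplasmic reticulum (ER) and is driven by the unfolded protein response.

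The 6 libraries held 8770079, 8391833 and 9098623 reads in genes at ZT24 and 8755332, 10108722 and 9847012 at ZT20. The number of genes above 0 was lowest in replicate 1 of each time, with 14597 at ZT24 and 14589 at ZT20, against 15378 to 15681 in the other 4 libraries. These same libraries stood apart on the first 2 principal components, ZT20 replicate 1 on the first (28.3% of the variance) and ZT24 replicate 1 on the second (23.6%). Exact two-sided permutation tests of 3 against 3, which cannot go below p = 0.1, gave p = 0.3 for reads, 0.8 for genes above 0 and 0.5 for the mitochondrial share. All 12 macrophage markers were present, among them Csf1r and Adgre1, and their summed level was 367854 ± 22190 at ZT24 and 366403 ± 26266 at ZT20 (SD, n = 3 each) in normalised reads (exact permutation p = 1). B cell markers summed to 10946 to 17916 at ZT24 and 13134 to 20603 at ZT20 (exact p = 0.5), and all 11 had a lower fitted level at ZT24. T cell markers summed to 143 to 200 at ZT24 and 192 to 464 at ZT20 (exact p = 0.3), with 7 of the 8 tested members lower. In 3 of these 8 all ZT24 values lay below all ZT20 values, and in 0 above, against 5.94% and 6.39% of all genes tested. Among them Cd3d had 11, 6 and 3 reads at ZT24, against 30, 45 and 38 at ZT20. Trac had 6, 6 and 8 reads at ZT24, against 22, 23 and 33 at ZT20. Mast cell markers summed to 585 to 1567 at ZT24 and 1445 to 2098 at ZT20 (exact p = 0.3). Neutrophil markers summed to 334 to 358 at ZT24 and 300.0 to 321 at ZT20, without overlap (exact p = 0.1), with Ly6g, Cxcr2 and Elane at 0 in all 6 libraries, and their part in the results was not tested. Eosinophil, dendritic cell and erythrocyte or platelet markers gave exact p = 1, 0.9 and 1. NK cell markers summed to at most 18.0 in any of these libraries, and 1 of 6 was at 0 in all of them. Mesothelial and fibroblast markers summed to at most 20.8, with 6 of 10 at 0. In bulk samples, fewer cells of a type and less RNA per cell cannot be told apart.

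The comparison asks which transcripts change as the night ends. In young macrophages 12 genes rose at ZT24 relative to ZT20, among them chaperones of the cytosol and the ER and the transcription factor genes Rfx1 and Rfx2. A single gene fell, the clock output factor Tef. Testing used log2(value + 1) and kept genes whose mean over the 21 young libraries reached 10, and limma with Benjamini-Hochberg adjustment called a gene at an adjusted p under 0.05. By this rule 13 of 12113 genes were called (0.107%), 12 higher (0.0991%) and 1 lower (0.00826%). An unadjusted p under 0.05 was found for 654 genes (5.4%), 339 higher (2.8%) and 315 lower (2.6%). The 3 ZT24 values lay wholly above or below the 3 ZT20 values in all 13 called genes, and in 12.3% of all genes tested. The median difference over all genes was 0.00 (log2), with 49.5% higher and 50.5% lower by sign.

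**Figure D1:**
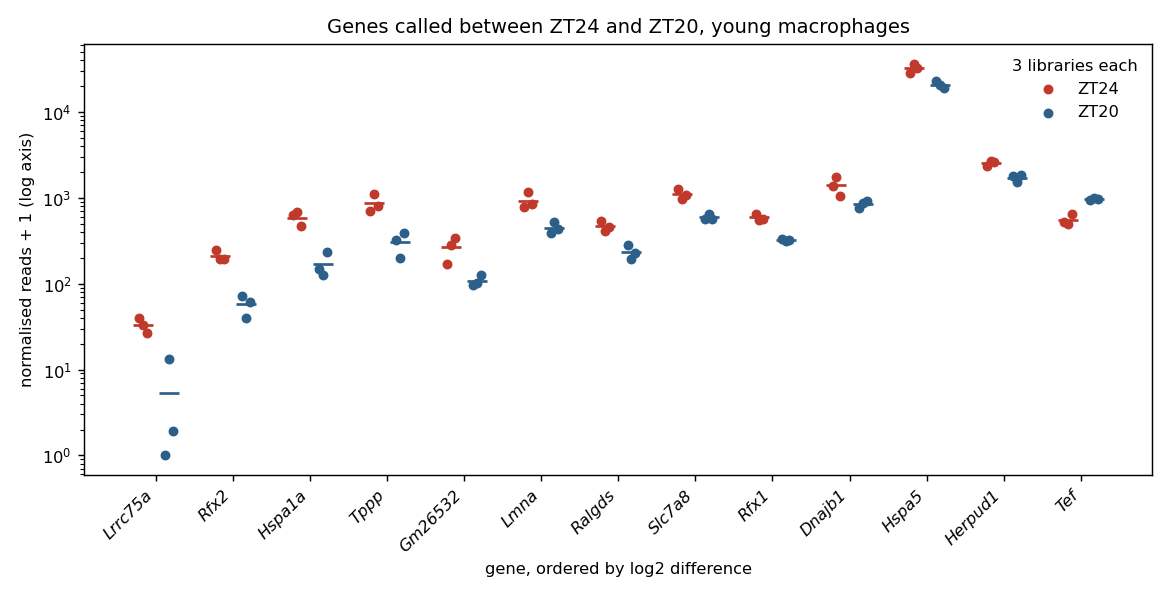
Normalised reads plus 1 (log axis) of the 13 called genes in the 3 ZT24 libraries (left of each pair) and the 3 ZT20 libraries (right), with a bar at each mean. The groups do not overlap in any gene, and Tef is the gene with the higher values at ZT20.

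The number of calls depended on single libraries and on the tool. Without ZT24 replicate 2 there were 4 calls, without ZT20 replicate 2 there were 5 and without ZT20 replicate 1 there were 8. DESeq2 on whole reads gave 23, a fit of the 6 libraries alone 22 and no filter on low values 7. The B cell marker Ighd was among the DESeq2 calls, at -0.86 (log2; adjusted p = 0.0456), and was not called by limma (adjusted p = 0.208). All 13 genes kept their direction in every one of the 22 other settings in which they could be tested, and Tef and Rfx1 kept their call without any single library. With the summed T cell markers as a covariate, chosen after seeing the data, 2 genes were called, Tef and Lmna. With the mast cell markers there were 6 calls, and with B, T and mast cell markers together 0 by limma, with 556 genes at an unadjusted p under 0.05. The median size of the 13 differences was 1.03 with all 3 covariates and their median SE 0.25. With the T cell covariate it was 0.98, against 1.0 without it (log2), and their median SE 0.21 against 0.18. Without replicate 1 of both times, also chosen after seeing the data, Gm26532 and Cirbp were called, and the 13 differences had a median size of 1.04.

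Cytosolic chaperones of the heat shock class were higher at ZT24 in most cases, and 2 of the 24 tested members rose, Hspa1a and Dnajb1. Hspa1a, the stress-inducible chaperone of the HSP70 class (ENSMUSG00000091971, chromosome 17, 34969190 to 34972156, minus strand, GRCm38), had 624, 675 and 468 normalised reads at ZT24, against 147, 124 and 233 at ZT20. All 3 ZT24 libraries lay above every ZT20 library. The log2 difference was 1.84 ± 0.35 (SE; limma, adjusted p = 0.0171). Dnajb1, its J-domain co-chaperone (ENSMUSG00000005483, chromosome 8, 83608193 to 83612653, plus strand), had 1379, 1753 and 1045 normalised reads at ZT24, against 763, 862 and 918 at ZT20. The groups did not overlap, although ZT24 replicate 3 came close to the ZT20 libraries. Dnajb1 rose by 0.69 ± 0.15 (SE; limma, adjusted p = 0.0475). Leaving out single libraries ended the call of Hspa1a in 4 of 6 cases (without ZT24 replicate 1 or 2 or ZT20 replicate 1 or 2; adjusted p 0.0866 to 0.209) and that of Dnajb1 in 5 of 6, all but ZT24 replicate 3 (0.0860 to 0.402).

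Hspa1b, a near-identical copy of Hspa1a on the same chromosome, had 248, 481 and 304 normalised reads at ZT24, against 41.9, 53.6 and 162 at ZT20. Reads of the pair may be split between them by the counting, so each one's value is uncertain on its own. The difference of Hspa1b was 2.19 ± 0.50 (log2, SE) and did not pass the test (limma, adjusted p = 0.0863). Hspa8, the constitutive chaperone of the same family, had 1922, 2933 and 2679 at ZT24, against 1416, 1265 and 1323 at ZT20. Its groups did not overlap and its difference of 0.89 ± 0.20 was just outside the threshold (limma, adjusted p = 0.0664). Both genes were called when the 6 libraries were fitted alone (limma, adjusted p = 0.00800 for Hspa1b and 0.00292 for Hspa8). Hspa1b was also called without ZT20 replicate 3 (0.0257) and with the B cell covariate (0.0386), and Hspa8 without ZT24 replicate 1 (0.0315) and with array weights (0.00773). Over all settings their adjusted p ran to 0.720 and 0.994. Of the 24 members, 21 had a higher fitted level at ZT24 and 3 a lower one. In 16 the ZT24 values all lay above the ZT20 values, against 6.39% of all genes tested, and in 0 did they all lie below, against 5.94%. The median difference of the list was 0.43, against 0.00 over all genes (log2). Among members chosen after their values were seen, the HSP110 gene Hsph1 differed by 1.0 ± 0.23, the cytosolic HSP90 gene Hsp90aa1 by 0.77 ± 0.19, the HSP70-HSP90 adaptor gene Stip1 by 0.59 ± 0.15 and the J-domain gene Dnaja1 by 0.67 ± 0.18 (log2, SE; limma, adjusted p = 0.0967, 0.169, 0.202 and 0.249). Of these, Hsph1 and Dnaja1 were called in the fit of the 6 libraries (limma, 0.0110 and 0.0421), Hsph1 with array weights (0.0481) and Hsp90aa1 by DESeq2 (0.0456), while the 3 marker covariates gave each an adjusted p of 0.994. The 8 genes of the CCT chaperonin, a ring that folds actin and tubulin, had a median of 0.10, and limma called 0 of them, with 0 at an unadjusted p under 0.05.

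The window from 250 bases before to 50 after the start is shown for Hspa1a because it holds a motif of the heat shock class, with that motif in capitals. Sequences are RefSeq windows on GRCm38.p6, read 5' to 3' on the strand of the gene, and 11 of the 13 called genes had an entry. Hspa1a lies at chr17:34972107-34972406, minus strand.
Hspa1a: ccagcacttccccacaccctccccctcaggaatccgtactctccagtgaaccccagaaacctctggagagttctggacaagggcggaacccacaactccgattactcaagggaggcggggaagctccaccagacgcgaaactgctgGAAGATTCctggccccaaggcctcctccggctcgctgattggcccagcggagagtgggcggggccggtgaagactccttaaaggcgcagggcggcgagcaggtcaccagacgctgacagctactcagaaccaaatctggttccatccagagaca
The letters searched were GAANNTTC, a palindrome that reads alike on both strands, found once in this window, at base 147. Of all 32851 windows of this length, 7.86% held it. The window of Hspa1b (chr17:34959189-34959488, minus strand) had the same base at 296 of 300 positions and the same letters at base 147. Dnajb1 had no match in either of its windows. A match is a description of letters and not evidence of binding.

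Chaperones and quality-control genes of the ER were higher at ZT24 in 27 of 29 tested members, and 2 rose, Hspa5 and Herpud1. Hspa5, which encodes the ER chaperone BiP (ENSMUSG00000026864, chromosome 2, 34771970 to 34777547, plus strand), had 28679, 36651 and 32266 normalised reads at ZT24, against 22677, 20668 and 18907 at ZT20. The lowest ZT24 library lay well above the highest ZT20 library. The gene rose by 0.65 ± 0.13 (log2, SE; limma, adjusted p = 0.0229). Herpud1, which takes part in the removal of misfolded ER proteins (ENSMUSG00000031770, chromosome 8, 94386438 to 94395377, plus strand), had 2348, 2699 and 2617 at ZT24, against 1816, 1537 and 1821 at ZT20. Its groups did not overlap either, with a rise of 0.57 ± 0.12 (log2, SE; limma, adjusted p = 0.0355). Single libraries ended the call of Hspa5 in 4 of 6 cases (without ZT24 replicate 2 or 3 or ZT20 replicate 2 or 3; adjusted p 0.106 to 0.250) and that of Herpud1 in 5, all but ZT24 replicate 1 (0.0808 to 0.364).

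Limma on all young libraries called no other ER gene. Manf, a secreted ER stress protein, had 2649, 2797 and 2430 normalised reads at ZT24, against 1796, 1745 and 1990 at ZT20, a difference of 0.51 ± 0.13 (log2, SE; limma, adjusted p = 0.213). Fitted on the 6 libraries alone Manf was called (limma, adjusted p = 0.0393), and over all settings its adjusted p ran to 1.0. Creld2, an ER redox protein, differed by 0.72 ± 0.22 (adjusted p = 0.429) with overlapping groups. Calr, the gene of the lectin chaperone calreticulin, chosen after its value was seen, differed by 0.36 ± 0.11 (adjusted p = 0.507) without overlap. In 12 of 29 members all ZT24 values lay above the ZT20 values and in 0 below, against 6.39% and 5.94% of all genes. The median of the list was 0.24 (log2). In the integrated stress response, a related pathway that acts through ATF4, limma called 0 of 11 members and the median was 0.13. An unadjusted p under 0.05 was found for 2 of them, against 5.4% of all genes. The members of lowest p in this list were Ddit3 (0.57 ± 0.23), Atf5 (0.42 ± 0.20), Atf4 (0.27 ± 0.15) and Slc7a5 (-0.48 ± 0.31; log2, SE). Slc7a5 had lower values in all 3 ZT24 libraries than in any ZT20 library. By sign 7 of the 11 members were higher and 4 lower.

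The window of Hspa5 is shown because it holds the ER stress element, the letters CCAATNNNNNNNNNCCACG, in capitals. It lies at chr2:34771840-34772139, plus strand.
Hspa5: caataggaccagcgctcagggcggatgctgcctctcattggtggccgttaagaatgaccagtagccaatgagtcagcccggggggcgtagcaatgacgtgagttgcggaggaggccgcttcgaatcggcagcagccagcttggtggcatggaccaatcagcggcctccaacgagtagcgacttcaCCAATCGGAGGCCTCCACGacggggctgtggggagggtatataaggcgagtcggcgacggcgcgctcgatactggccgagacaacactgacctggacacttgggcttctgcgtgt
Both strands were searched and the letters were found once, at base 186. Of all windows 0.119% held them. Among the windows looked at, that of Hsp90b1, another ER chaperone, held 2 copies, and Herpud1 and Pdia4 had no match to these letters. Other spacings of the element were not searched, so a window without a match may hold another form.

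**Figure D2:**
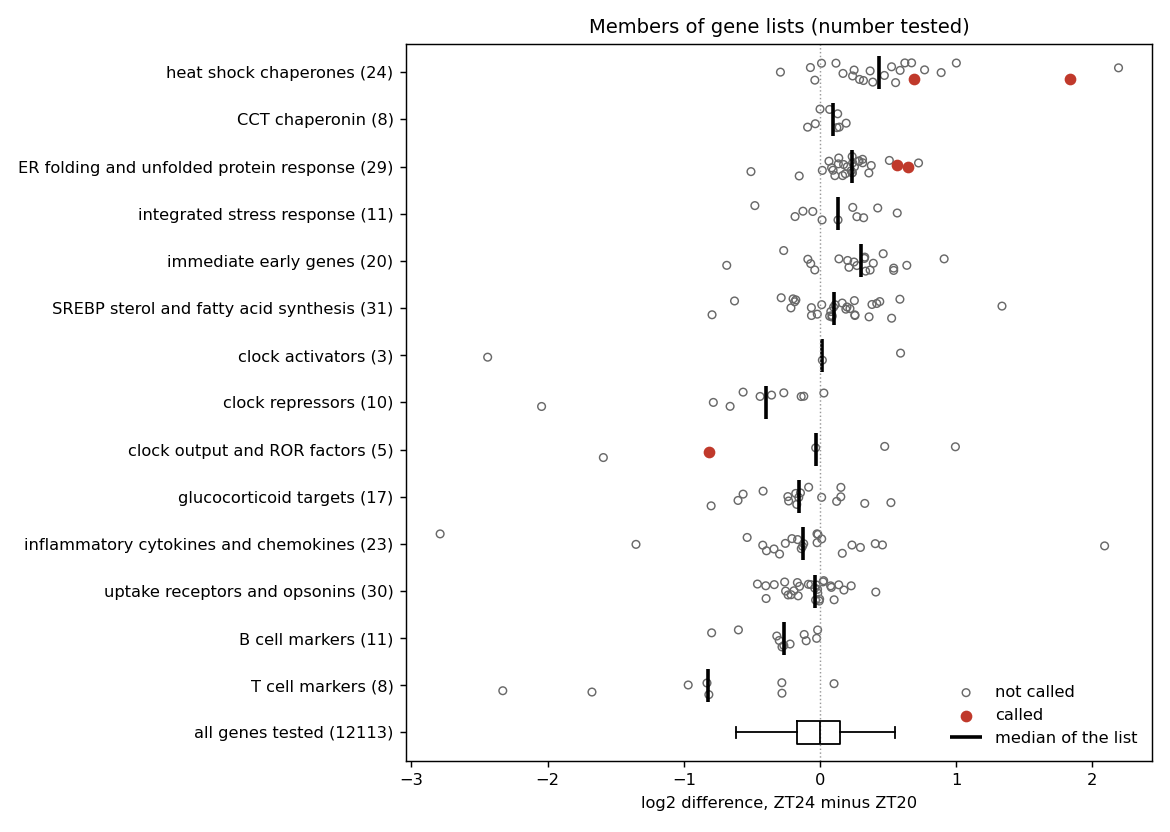
Log2 difference, ZT24 minus ZT20, of the tested members of 14 gene lists (points, called genes filled) with each list's median, and of all 12113 genes (box of quartiles, whiskers at the 5th and 95th percentile). The heat shock and ER lists lie mostly right of 0 with medians of 0.43 and 0.24, and the clock repressors left of it with a median of -0.40.

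The other genes that rose stand outside these lists. Rfx2, a transcription factor known for driving genes of cilia (ENSMUSG00000024206, chromosome 17, 56775897 to 56831013, minus strand), had 249, 190 and 192 normalised reads at ZT24, against 70.6, 38.6 and 60.7 at ZT20. Even the lowest ZT24 library held more than the highest ZT20 library by a wide margin, and the gene rose by 1.91 ± 0.33 (log2, SE; limma, adjusted p = 0.00593). Rfx1, of the same family of factors with a winged-helix DNA-binding domain (ENSMUSG00000031706, chromosome 8, 84066834 to 84096992, plus strand), had 651, 554 and 565 at ZT24, against 331, 314 and 321 at ZT20. Both groups were tight and far apart, with a rise of 0.87 ± 0.14 (log2, SE; limma, adjusted p = 0.00593). Rfx2 lost its call without ZT24 replicate 1 (adjusted p = 0.0532) and without ZT20 replicate 2 (0.139).

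Lmna, which encodes the nuclear lamins A and C (ENSMUSG00000028063, chromosome 3, 88480147 to 88509956, minus strand), had 774, 1159 and 849 normalised reads at ZT24, against 388, 529 and 428 at ZT20. Tppp, whose product promotes the polymerisation of tubulin (ENSMUSG00000021573, chromosome 13, 74009407 to 74035753, plus strand), had 700, 1115 and 793 at ZT24, against 321, 197 and 389 at ZT20. Neither gene's groups overlapped, and in both the highest value was that of ZT24 replicate 2. Lmna rose by 1.04 ± 0.18 (log2, SE; limma, adjusted p = 0.00593) and Tppp by 1.55 ± 0.27 (limma, adjusted p = 0.00652). Lmna lost its call without ZT24 replicate 2 (adjusted p = 0.131) or ZT20 replicate 1 (0.0586), and Tppp without ZT24 replicate 2 or ZT20 replicate 2 (0.150 to 0.175).

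Slc7a8, a transporter of neutral amino acids (ENSMUSG00000022180, chromosome 14, 54722209 to 54781946, minus strand), had 1270, 966 and 1066 normalised reads at ZT24, against 560, 644 and 567 at ZT20. Ralgds, an exchange factor for Ral GTPases (ENSMUSG00000026821, chromosome 2, 28513125 to 28553081, plus strand), had 532, 412 and 455 at ZT24, against 280, 193 and 228 at ZT20. Again the times did not overlap in either gene. Slc7a8 rose by 0.89 ± 0.15 (log2, SE; limma, adjusted p = 0.00593) and Ralgds by 1.0 ± 0.21 (limma, adjusted p = 0.0355). Slc7a8 lost its call without ZT24 replicate 1 (adjusted p = 0.0607) and Ralgds without any single library except ZT20 replicate 1 (0.131 to 0.364).

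The long non-coding RNA gene Gm26532 (ENSMUSG00000097296, chromosome 8, 84208920 to 84209609, plus strand) had 170, 284 and 340 normalised reads at ZT24, against 96.0, 102 and 124 at ZT20, and rose by 1.25 ± 0.24 (log2, SE; limma, adjusted p = 0.0185). Lrrc75a (ENSMUSG00000046417, chromosome 11, 62604884 to 62648523, minus strand) rested on few reads, 35, 28 and 24 at ZT24 and 0, 13 and 1 at ZT20. Its groups did not overlap, but the ZT20 libraries spread widely. The fitted rise was 3.46 ± 0.71 (log2, SE; limma, adjusted p = 0.0355), and it depended on the scale, with 2.80 by edgeR's quasi-likelihood test, where it was not called (adjusted p = 0.283). Gm26532 lost its call without ZT24 replicate 2 or 3 or ZT20 replicate 1 or 2 (0.123 to 0.212), and Lrrc75a without any single library except ZT20 replicate 2 (0.106 to 0.318). Of the 13 called genes, 7 overlap another annotated gene and 6 of these one on the opposite strand, and whether counting used the strand is not given in the sources used here.

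A clock gene gave the single fall called by limma. Tef, a PAR bZIP transcription factor that binds D-boxes (ENSMUSG00000022389, chromosome 15, 81802421 to 81826863, plus strand), had 521, 491 and 649 normalised reads at ZT24, against 933, 988 and 978 at ZT20. All ZT24 values were lower than all ZT20 values, and Tef fell by 0.81 on the log2 scale (SE 0.13; limma, adjusted p = 0.00491), the lowest p of all genes. Dbp, a factor of the same family, had 43.8, 20.5 and 18.2 at ZT24, against 78.3, 87.5 and 71.2 at ZT20. These groups did not overlap, but the difference of -1.59 ± 0.36 (log2, SE) did not pass the test (limma, adjusted p = 0.0810). The call of Dbp depended on the setting. It was called by DESeq2 (adjusted p = 0.00624), with array weights (limma, 0.0193) and without ZT24 replicate 1 (limma, 0.0263), and its adjusted p ran to 0.994 with the 3 marker covariates. Nfil3, which competes with them for D-boxes as a repressor, had a difference of 0.48 ± 0.24 (adjusted p = 0.911) without overlap. Rora, an activator of Arntl, differed by -0.03 ± 0.24, and Usp2, a deubiquitinase gene driven by the clock, by 0.99 ± 0.94 on 0 to 17 reads a library.

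The window of the first Tef start is shown because it holds an E-box, CACGTG, the site that CLOCK and BMAL1 bind, in capitals. It lies at chr15:81802423-81802722, plus strand.
Tef: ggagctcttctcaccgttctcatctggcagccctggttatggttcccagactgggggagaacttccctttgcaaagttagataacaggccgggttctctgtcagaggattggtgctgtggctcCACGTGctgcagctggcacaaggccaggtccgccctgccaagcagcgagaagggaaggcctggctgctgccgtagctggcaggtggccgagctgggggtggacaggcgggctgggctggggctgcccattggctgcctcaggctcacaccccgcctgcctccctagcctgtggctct
The E-box, a palindrome, stands at base 124, and the window of the other Tef start (chr15:81811164-81811463) has one at base 113. Of all windows 7.15% held an E-box. Among the windows looked at, a window of Ralgds, which rose, held one at base 177. Both windows of Hsph1, which was not called, also held one. Neither Tef window held the D-box letters TTANGTAA, which 2.32% of all windows held on either strand, and Dbp had no match to any of the 4 motifs.

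Among the core clock genes limma called 0 of the 3 tested activators, 1 of them with an unadjusted p under 0.05, and 0 of the 10 repressors. Among the activators Arntl had 404, 234 and 273 normalised reads at ZT24, against 178, 202 and 209 at ZT20, a difference of 0.59 ± 0.22 (log2, SE; limma, adjusted p = 0.740). Its groups did not overlap, with ZT24 replicate 1 highest. Clock differed by 0.02 ± 0.16, and Arntl2 by -2.44 ± 1.20 on at most 18 reads a library. Of the 10 repressors 9 had a lower fitted level at ZT24, with a median of -0.40 (log2), and 4 of these had an unadjusted p under 0.05. Of all genes tested 50.5% were lower by sign, and 2.6% were lower at that unadjusted p. Per3 had 115, 74.1 and 119 at ZT24, against 130, 189 and 213 at ZT20, which gives -0.78 ± 0.23 (adjusted p = 0.415). The REV-ERB beta gene Nr1d2 had 105, 115 and 157 at ZT24, against 170, 229 and 195 at ZT20, which gives -0.66 ± 0.20 (adjusted p = 0.518). Neither overlapped between the times. Per1 differed by -0.56 ± 0.26, Per2 by -0.44 ± 0.32, Cry2 by -0.36 ± 0.26 and Cry1 by -0.12 ± 0.25, which turned to 0.06 without replicate 1 of both times. Bhlhe41 differed by -0.27 ± 0.19, Bhlhe40 by 0.03 ± 0.12 and Ciart by -0.14 ± 0.85. Nr1d1, the REV-ERB alpha gene, had 0, 0 and 5 reads at ZT24 and 8, 9 and 4 at ZT20.

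Per2 and Cry1 differed by less than a fitted daily curve gives. A cosine of 24 h fitted to the 15 libraries of ZT0 to ZT16, whose values do not enter the measured difference, gives a difference between ZT24 and ZT20 of -2.57 ± 0.28 for Per2 and of -1.23 ± 0.15 for Cry1 (log2, SE). The measured values of these genes, given above, were nearer to 0. So were those of Per3, Per1 and Cry2, for which the cosine gives -1.24 ± 0.13, -0.78 ± 0.16 and -0.56 ± 0.14. Measured at ZT0 against the same ZT20 libraries, Per2 differed by -0.44 ± 0.32 and Cry1 by 0.17 ± 0.25 (log2, SE). How well the cosine follows each gene was not tested. For Tef the cosine gives -1.12 ± 0.09, for Dbp -1.42 ± 0.20, for Nr1d2 -0.61 ± 0.09 and for Arntl 0.87 ± 0.11, each of the sign that was measured. Tef and Arntl were nearer to 0 as measured, and Dbp and Nr1d2 farther from it. This fit is a description and carries no test.

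**Figure D3:**
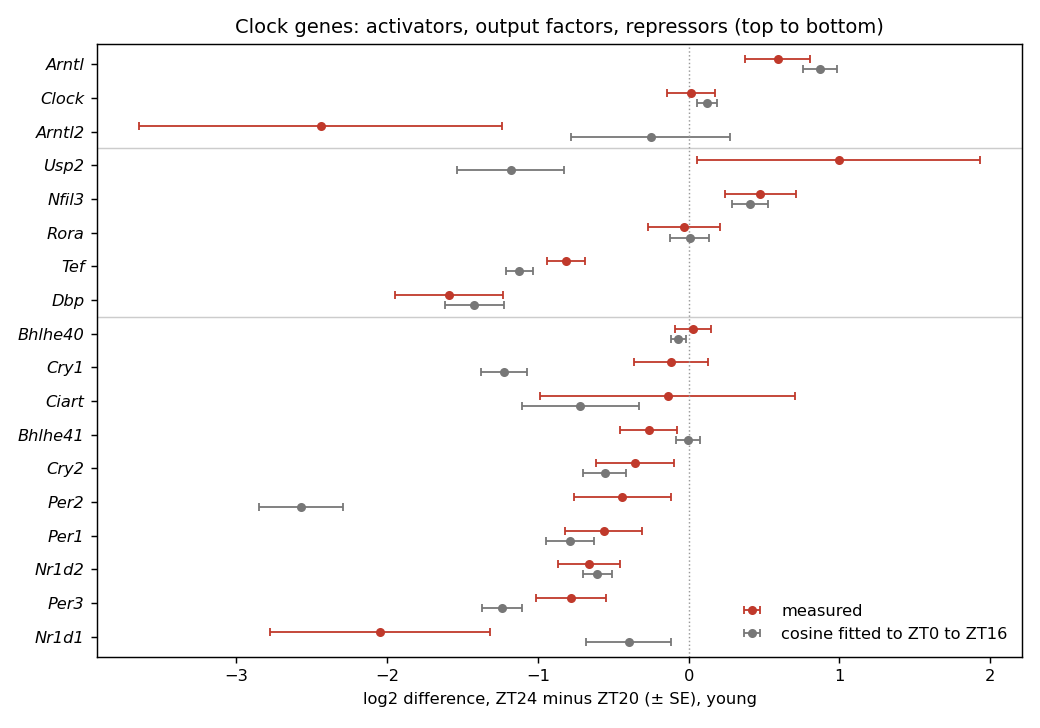
Log2 difference, ZT24 minus ZT20, of the 18 tested clock genes in young macrophages as measured (red, ± SE) and as a cosine fitted to ZT0 to ZT16 gives it (grey, ± SE). Tef and Dbp lie below 0 in both, and Per2 and Cry1 are nearer to 0 as measured.

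Cirbp, a cold-inducible RNA-binding protein gene (ENSMUSG00000045193, chromosome 10, 80165985 to 80172786, plus strand), had 207, 93.5 and 157 normalised reads at ZT24, against 208, 407 and 473 at ZT20. The groups nearly touched at ZT24 replicate 1 and ZT20 replicate 1. Its difference of -1.23 ± 0.27 (log2, SE) did not pass the test (limma, adjusted p = 0.0664). Its call moved with single libraries in both directions. Without both of these it was -1.85 and called (limma, adjusted p = 0.00532), a fit chosen after seeing the data. Without ZT24 replicate 2 it was -0.92 (adjusted p = 0.432), without ZT20 replicate 3 -1.0 (0.528) and with the 3 marker covariates -0.83 (0.994). In aged cells Cirbp differed by 0.28 ± 0.31, and a cosine fitted to the young libraries of ZT0 to ZT16 gives 0.86 ± 0.11. Both have the opposite sign, while the measured young ZT0 minus ZT20 was -0.96 ± 0.27 (log2, SE). Over the day in young cells Cirbp averaged 187 at ZT0, 672 at ZT4, 596 at ZT8, 407 at ZT12, 166 at ZT16, 363 at ZT20 and 153 at ZT24. Its age difference of 1.51 ± 0.45 was not called by limma. Rbm3, the other well known cold-inducible gene, had 97.5, 116 and 93.1 at ZT24, against 73.9, 76.2 and 75.9 at ZT20, a difference of 0.43 ± 0.30 in the other direction (adjusted p = 0.929).

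Limma on all young libraries did not call the genes next in order of p among those with lower values at ZT24. Nfkbiz, which encodes the nuclear NF-kB regulator I kappa B zeta, had 259, 214 and 308 normalised reads at ZT24, against 418, 406 and 437 at ZT20, a difference of -0.70 ± 0.17 (log2, SE; limma, adjusted p = 0.163). Sec16b, a factor of ER export sites, differed by -1.33 ± 0.33, the tetraspanin gene Tspan4 by -0.58 ± 0.15, the NAD-consuming ectoenzyme gene Cd38 by -0.57 ± 0.15 and the cytokine receptor gene Lifr by -0.54 ± 0.14 (limma, adjusted p 0.163 to 0.222). DESeq2 called Sec16b (adjusted p = 0.0328), and over all settings its adjusted p ran to 0.742. In all 5 the groups did not overlap. Scarb2, Fam214a and Nipsnap2 differed by -0.40 ± 0.11, -0.79 ± 0.22 and -0.58 ± 0.17, also without overlap. All were chosen by their p in this comparison, so the lack of overlap is a description. Of all genes tested 5.94% were lower without overlap. Klf9, a glucocorticoid target, differed by -0.60 ± 0.17 with overlapping groups, and was called without ZT20 replicate 3 (-0.84; limma, adjusted p = 0.0266) and in no other setting, with adjusted p up to 1.0.

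Other programmes of the macrophage gave 0 calls by limma, with a few members each at an unadjusted p under 0.05. Immediate early genes, which respond within minutes to a stimulus, had 15 of 20 members higher and a median of 0.30 (log2), with 7 higher and 1 lower at an unadjusted p under 0.05. Of all genes tested 2.8% were higher and 2.6% lower at that level, and 49.5% were higher by sign. The AP-1 genes Junb (0.33 ± 0.12) and Jund (0.39 ± 0.16) had no overlap, while Egr1 differed by -0.68 ± 0.27 and Klf4 by 0.37 ± 0.15 with overlap. Without ZT24 replicate 1 Egr1 was called, at -1.17 (limma, adjusted p = 0.0424), and in other settings its adjusted p ran to 1.0. Of 17 glucocorticoid targets 11 were lower, with a median of -0.16 and 1 higher and 3 lower at that level. Fkbp5, whose product binds the receptor complex, differed by -0.80 ± 0.36 and the cell cycle inhibitor gene Cdkn1a by 0.52 ± 0.18. Sterol genes driven by SREBP had 21 of 31 members higher and a median of 0.10, with 4 higher and 1 lower at that level. Hmgcs1, Stard4 and Cyp51 of this list differed by 0.38 ± 0.13, 0.53 ± 0.20 and 0.44 ± 0.18 (log2, SE). The cholesterol exporters Abca1 (-0.34 ± 0.14) and Abcg1 (-0.34 ± 0.17), which act in the opposite sense, had lower values in all 3 ZT24 libraries than in any ZT20 library. Of the 24 lipid handling genes 2 were at an unadjusted p under 0.05, against 5.4% of all genes. The genes named here were chosen by low p within their lists, so a lack of overlap is a description.

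Limma called 0 genes of the immune lists as well. Of 23 cytokines and chemokines 16 were lower, with a median of -0.13 and 2 at an unadjusted p under 0.05, against 5.4% of all genes. In this list Ccl9 differed by -0.25 ± 0.11 without overlap. Interferon-stimulated genes (34 tested, median 0.01) and genes of the Toll-like receptor pathway (29 tested, median -0.01) centred on 0. Among uptake receptors the inhibitory Fc receptor gene Fcgr2b differed by -0.40 ± 0.12 and the beta-glucan receptor gene Clec7a by -0.46 ± 0.15 (log2, SE; limma, adjusted p = 0.449 and 0.527), both without overlap. Genes were named from these lists by low p, so a lack of overlap is a description. The lactate exporter gene Slc16a3 had 1106, 972 and 1096 normalised reads at ZT24, against 793, 813 and 699 at ZT20, a difference of 0.46 ± 0.14 (adjusted p = 0.395). Cytosolic ribosomal proteins (79 tested), the nuclear-encoded respiratory chain (77) and the proteasome (38) had medians of 0.02, 0.01 and 0.01.

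Over the 7 times most of the genes that rose had a similar course. Means at ZT24 were the highest of the day in 11 of the 12, against 12.4% of all genes tested. The ZT20 mean lay below both ZT16 and ZT24 in 11 of 12, against 33.3% of all genes, and as ZT20 and ZT24 chose the genes this is a description. Hspa1a averaged 451 ± 150 at ZT0, 84.2 ± 28.6 at ZT4, 213 ± 151 at ZT16, 168 ± 57.7 at ZT20 and 589 ± 108 at ZT24 (SD, n = 3 each). Tppp averaged 766 ± 204 at ZT0, 73.1 ± 18.4 at ZT4, 578 ± 73.8 at ZT16, 302 ± 97.6 at ZT20 and 870 ± 218 at ZT24. Both were high at ZT0 and ZT24, low by ZT4 and lower at ZT20 than at ZT16. Rfx2 averaged 117 ± 38.4 at ZT0, 29.2 ± 7.06 at ZT4, 114 ± 7.34 at ZT16, 56.6 ± 16.4 at ZT20 and 210 ± 33.3 at ZT24. The drop between ZT0 and ZT4, which uses neither group of the comparison, was seen in 10 of 12 means, against 48.3% of all genes. Slc7a8 had another course, at 820 ± 113 at ZT0, 855 ± 79.3 at ZT4, 428 ± 47.7 at ZT12 and 1101 ± 155 at ZT24.

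**Figure D4:**
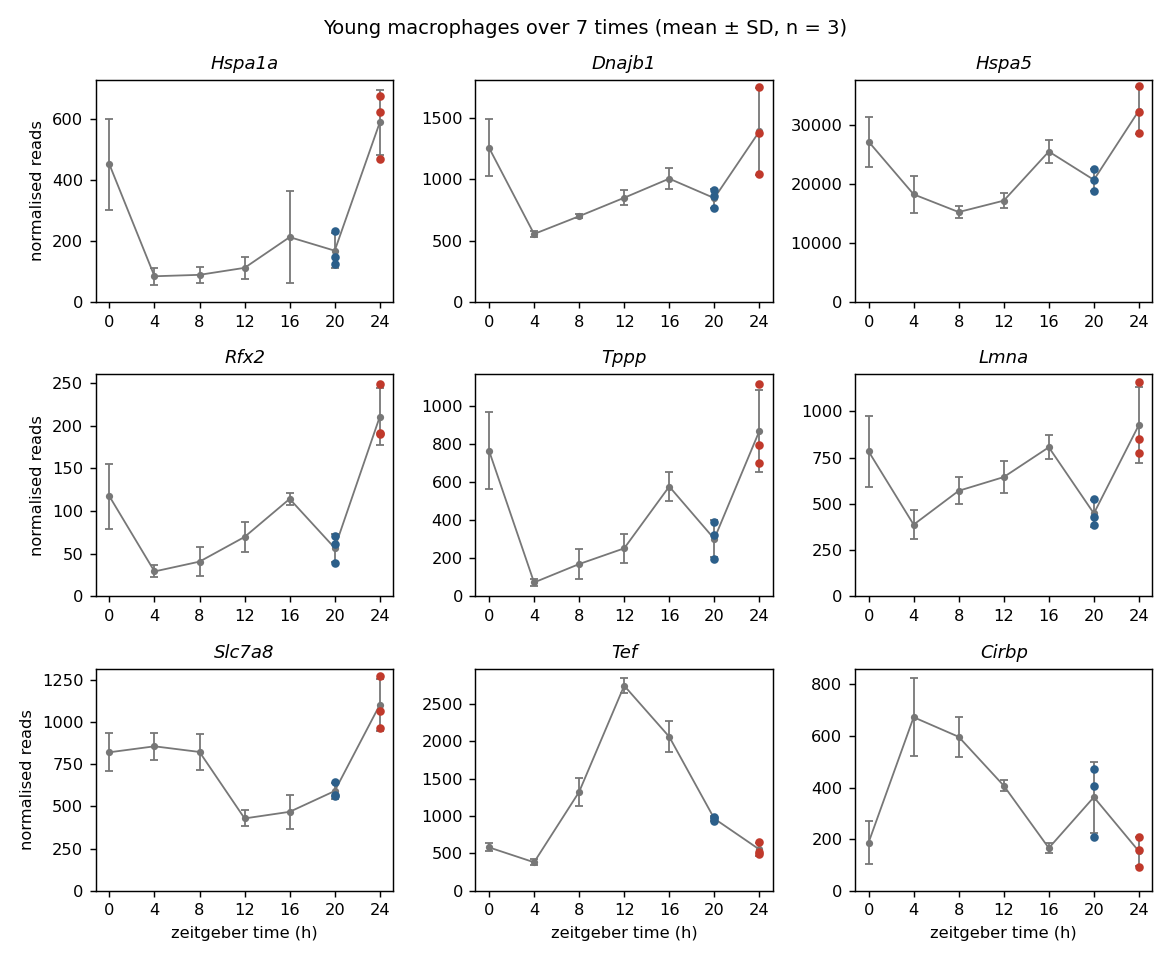
Normalised reads of 9 genes in young macrophages at 7 zeitgeber times (mean ± SD, n = 3; the single libraries of ZT20 in blue and of ZT24 in red). Hspa1a, Dnajb1, Hspa5, Rfx2, Tppp and Lmna have a lower mean at ZT20 than at ZT16 and ZT24, and Tef declines after ZT12. Cirbp has a higher mean at ZT20 than at ZT16 and ZT24, and its highest at ZT4.

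The cosine fitted to ZT0 to ZT16 had the sign of the measured difference in 2 of the 13 called genes, Tef and Slc7a8, against 47.6% of all genes. It gives -0.43 ± 0.19 for Hspa1a, -0.23 ± 0.06 for Hspa5, -0.87 ± 0.17 for Rfx2 and -1.18 ± 0.21 for Tppp (log2, SE), all of which rose. A 24 h cosine gives ZT24 the level it fits at ZT0. The measured ZT0 means lay above ZT20 in 12 of the 12 genes that rose, against 49.8% of all genes. ZT0 minus ZT20 was 1.42 ± 0.35 for Hspa1a and 0.39 ± 0.13 for Hspa5 (log2, SE). For Rfx2 it was 1.03 ± 0.33 and for Tppp 1.36 ± 0.27. Between ZT0 and ZT20 limma called 1 of 12113 genes, Tef (adjusted p = 0.0266), and so none of the 12 that rose. Hspa1a, Hspa5, Rfx2 and Tppp had an adjusted p of 0.292, 0.508, 0.499 and 0.0811 (limma). As ZT20 helped to choose the genes, these ZT0 values are a description.

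ZT24 and ZT0 are the same phase of the cycle, sampled as separate libraries. No gene was called between them by limma or edgeR, 1 by DESeq2, and 555 of 12113 had an unadjusted p under 0.05 (4.58%). Without ZT0 replicate 3 limma called 2. Among the 13 genes the difference of ZT24 from ZT0 was 0.42 ± 0.35 for Hspa1a, 0.26 ± 0.13 for Hspa5, 0.87 ± 0.33 for Rfx2, 0.42 ± 0.15 for Slc7a8, 0.19 ± 0.27 for Tppp and -0.08 ± 0.13 for Tef (log2, SE). This comparison shares the ZT24 libraries with the first, so its values are only set beside it. The gene of lowest p was Zfp319, with 2.61 ± 0.51 (limma, adjusted p = 0.188).

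In aged macrophages the same 4 h gave no call. Limma called 0 of 12016 genes between aged ZT24 and aged ZT20, where 223 had an unadjusted p under 0.05 (1.86%), edgeR called 0 and DESeq2 1. These libraries are independent of the young ones. All 13 genes called in young cells had the same sign in aged cells, against 54.3% of the 11782 genes tested in both. In 4 of them the aged difference was over 2 SE, namely Rfx2 (1.07 ± 0.38), Lmna (0.72 ± 0.24), Gm26532 (0.69 ± 0.33) and Tef (-0.57 ± 0.18; log2, SE). Hspa1a had a difference of 0.23 ± 0.29 in aged cells and Dnajb1 one of 0.00 ± 0.15. The heat shock list had a median of 0.10 in aged cells, with 19 of 24 members higher, and of 0.43 in young cells, with 21 of 24 higher. Among all genes 49.4% were higher at ZT24 in aged cells. The ER list had a median of 0.09 in aged cells and 0.24 in young cells.

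Whether the step differs with age was tested as aged minus young over all 42 libraries on one scale. Limma called 0 of 12086 genes, with 273 at an unadjusted p under 0.05 (2.26%), and edgeR and DESeq2 called 0. The difference was -1.62 ± 0.50 for Hspa1a, -0.69 ± 0.22 for Dnajb1 and -3.25 ± 0.91 for Lrrc75a (log2, SE), each at an adjusted p of 1.0 by limma. Among the clock genes Per2 had a difference of -1.36 ± 0.28 in aged cells and an age difference of -0.92 ± 0.46 that did not pass the test (adjusted p = 1.0). The lowest p was that of Hook2, at -0.63 in aged and 0.92 in young cells.

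**Figure D5:**
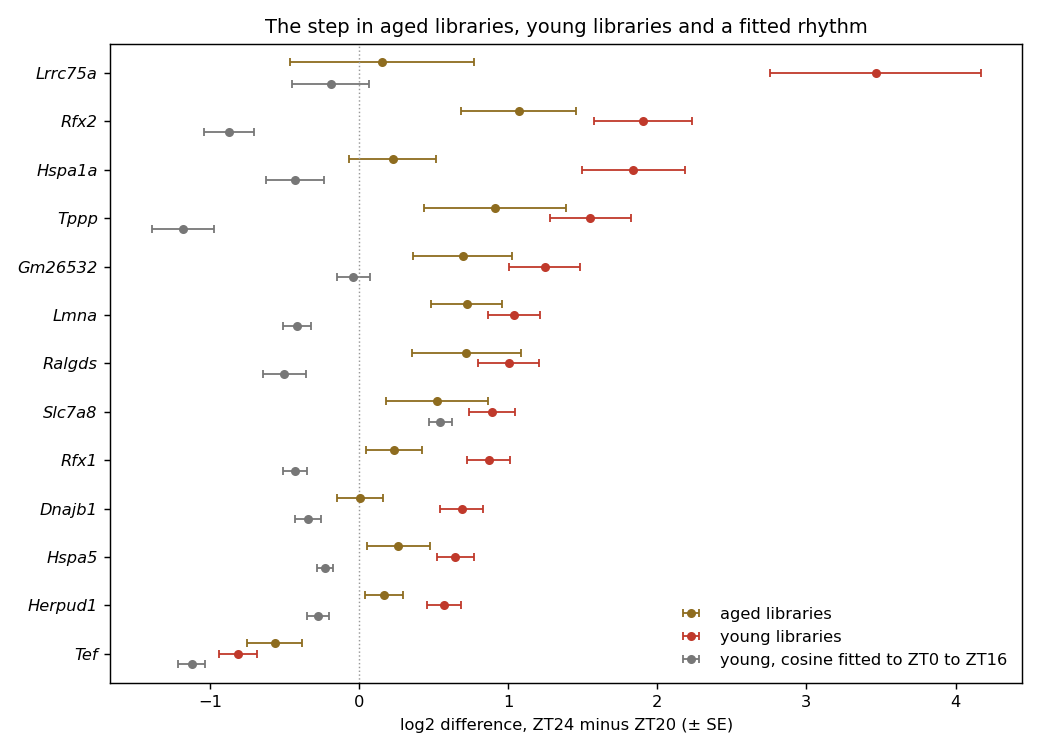
Log2 difference, ZT24 minus ZT20 (± SE), of the 13 called genes in aged libraries (brown), young libraries (red) and from a cosine fitted to the young libraries of ZT0 to ZT16 (grey). Aged values lie on the same side of 0 as young ones in all 13, and the cosine does so for Slc7a8 and Tef.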

How the data were processed

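The authors deposited a normalised signal per gene in a table for each age, from 3' end (QuantSeq) libraries per the labels' protocols. Per the submitters' processing notes, STAR, DESeq2 and mm10 were used. The sources used here do not state versions, counter or annotation. Dividing each library's values by its size-factor step gave whole reads for 100.0% of values (tolerance 0.001). Of 47643 gene identifiers 47224 matched a symbol. Positions are GENCODE M21 on GRCm38.

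The main test was limma-trend (limma 3.58.1, R 4.3.3) on log2(value + 1) over genes whose mean reached 10, with 7 time means and all 21 young libraries (14 residual degrees of freedom), Benjamini-Hochberg adjusted. Fold changes are on this scale and depend on the pseudocount for genes with few reads (Lrrc75a 3.46, against 2.80 by edgeR). Alternatives were edgeR 4.0.16 and DESeq2 1.42.0 on whole reads, other pseudocounts, filters, scalings and thresholds, a replicate block, array weights, marker covariates and each library left out. Replicate pairs differed by more than sampling noise (chi-square per gene 9.01 to 11.9). Tests were checked on simulated data.

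Genes named are the called ones (filled to 12 a direction by p; Gm and Rik names passed over, except called Gm26532), all clock genes, up to 4 of lowest p from each list and up to 3 for ZT24 against ZT0 and for age. The comparison and the 49 lists were chosen with earlier results of these data known.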

Additional observations from a re-analysis of the deposited data

How the results depend on the processing

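The count of 13 genes called between ZT24 and ZT20 in young cells was 12 by edgeR, at pseudocounts 0.5 and 5, at a mean of at least 50 and with TMM scaling, and 11 with scaling to the total. It was 23 by DESeq2 (18 higher, 5 lower, all 13 among them), 22 with the 6 libraries alone (21 higher), 7 with no filter on low values, 17 with array weights and 20 at an adjusted p under 0.10. With B, T and mast cell marker covariates together 0 were called by limma (556 at an unadjusted p under 0.05), the 13 differences keeping their sign with a median size of 1.03 and a median SE of 0.25. Added after seeing the data, the B cell covariate alone gave 14 calls, the T cell one 2, the mast cell one 6, and the fit without both libraries of fewest genes 2. Leaving out single libraries gave 4 to 11. Between ZT24 and ZT0, 0 became 1 by DESeq2, 2 with no filter and 0 to 2 without single libraries. In aged cells 0 became 1 by DESeq2, and for the age difference 0 became 2 with no filter. With a replicate block 18 young genes were called, 15 higher and 3 lower, among them Hspa8, Hspa1b (adjusted p = 0.0406 each) and Dbp (0.0474), by limma. Whether the replicate numbers pair the libraries is not given in the labels. Same-numbered deviations correlated at 0.01, 0.04 and 0.02, and each library correlated best with its own number.

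Uncalled clock genes near 0 changed sign under some settings (log2). Nfil3 was -0.15 and Clock -0.14 and Bhlhe40 -0.04 with the 3 covariates. With the B cell covariate Bhlhe41 was 0.014, Bhlhe40 -0.01, Ciart 0.11 and Clock -0.13. Clock was -0.07 with the T cell one and -0.003 with scaling to the total, and Rora 0.10 with the mast cell one. Ciart was 0.29 by both edgeR and DESeq2. Without both libraries of fewest genes Cry1 was 0.06, Bhlhe40 -0.13, Ciart 0.42 and Clock -0.011. Without single libraries the ranges crossed 0 for Usp2 (-0.063 to 1.98), Cry1 (-0.213 to 0.034), Bhlhe40 (-0.138 to 0.148), Ciart (-0.878 to 0.536), Rora (-0.174 to 0.076) and Clock (-0.127 to 0.225). The cause was not tested.

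Depth limits genes with few reads, such as Lrrc75a, Nr1d1 and Ciart, and without molecular identifiers the reads are not separate molecules. The design has 3 libraries a time.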
